A study of Mus musculus with 6 samples.

Results

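Messenger RNA of mouse regulatory T cells (Treg) was taken in 2 ways before sequencing, by the standard poly(A) approach and by a single-cell approach with amplification, and the libraries of both ways were compared gene by gene. Genes were matched by Entrez number between the poly(A) table, with 2 libraries, and the single-cell protocol table, with 4 libraries. Of the 26286 genes in both tables, the 16214 with a count in at least 1 single-cell protocol library were used, and the Treg population entered as a covariate. The question was which transcript classes are measured at another level by the amplified protocol.

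The cells were CD4+ CD25high Treg sorted from pooled spleens and lymph nodes of C57BL/6 mice carrying a GFP reporter of Blimp1, the factor encoded by Prdm1, and the sample titles of all 6 libraries begin with BlimpHet. GFP- Treg gave 1 poly(A) library (replicate 20) and 2 single-cell protocol libraries (replicates 2 and 5). GFP+ Treg gave 1 poly(A) library (replicate 19) and 2 single-cell protocol libraries (replicates 1 and 4). The design text calls the 3 samples of a population biologically independent. How many animals made up each pool, and their age, the labels do not say. The single-cell approach was applied to purified RNA of sorted populations, so each library is a bulk sample.

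In poly(A) selection, messenger RNA is caught by its tail on oligo(dT) and is then fragmented and copied. In the single-cell approach, complementary DNA is primed from the tail with oligo(dT), given a second primer site and amplified by PCR before the library is made. Most messenger RNAs carry a poly(A) tail, while the replication-dependent histone messenger RNAs normally end in a short hairpin and have none.

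The genes used held between 15224051 and 24092281 counts in a library. The poly(A) libraries had a count in 14731 and 14877 of these genes, and the single-cell protocol libraries in 13022 to 14186 of them. The 100 genes with the most counts held 19.7% and 19.9% of the counts in the poly(A) libraries and 44.1% to 54.9% in the single-cell protocol libraries. GFP- replicate 5 stood apart among the latter, with the highest share. Foxp3, the factor that defines Treg, was at 1030 and 1170 CPM (counts relative to library size, after scaling by the trimmed mean of M values, TMM) in the poly(A) libraries and at 1700 to 2690 CPM in the single-cell protocol libraries. Prdm1 was at 8.6 CPM in GFP- and 143 CPM in GFP+ cells with poly(A), at 2.53 and 2.72 CPM in GFP- and at 45.5 and 30.2 CPM in GFP+ cells with the single-cell protocol, so each library matched its population label.

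Of the genes in the tables, 10072 (38.3%) had 0 in all 4 single-cell protocol libraries and were left out. They included 3505 of the 3507 genes on chromosomes 3, 8 and 9, which held 14.6% and 14.3% of all counts in the poly(A) libraries. The exceptions were Pex2 and Hnf4g, and Pex2, a peroxisome assembly gene, had 608 and 588 counts with poly(A) and 427, 346, 336 and 615 counts with the single-cell protocol. The zeros removed well-known Treg and T cell genes from the comparison, among them Cd3d, Cd3e, Cd3g, Thy1, Nt5e and Folr4, which are chosen here after their values were seen. Gene lengths differed too. Of the genes in the tables, 8113 were longer than 3000 bases in the poly(A) table, and 8112 of these were given as exactly 3000 bases in the single-cell protocol table. The protocol, the way each table was counted, and the mice and cells of its libraries cannot be told apart in this design.

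With all 6 libraries, more genes changed between the protocols than did not. Of 11731 genes tested, 3491 (29.8%) were higher and 4079 (34.8%) lower in the single-cell protocol libraries, by edgeR's quasi-likelihood test with a Benjamini-Hochberg adjusted p under 0.05. A difference is given throughout as log2 of single-cell protocol over poly(A), and past 2 on that scale in either direction there were 1681 genes higher and 1809 lower. The median over all genes tested was -0.20. When libraries were scaled by their total counts alone, that median moved by -1.61 to -1.80, and 1101 genes (9.39%) were higher and 7853 (66.9%) lower. On the deposited log2 RPKM values limma called 5808 genes higher and 1870 lower. These values are per length and, once sorted, hardly differed between the 6 libraries, as quantile normalisation would leave them. Counts fitted by edgeR with each table's own gene length gave 3783 genes higher and 3014 lower. How many genes lie on each side thus depends on the scaling, and values on the total-count scale are given below wherever they change a direction. Without poly(A) GFP+ replicate 19 there were 2185 genes higher and 2497 lower, and without poly(A) GFP- replicate 20 there were 2597 lower.

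For no gene did the protocol difference itself pass the threshold as differing between GFP- and GFP+ cells. The interaction of protocol with population was called for 0 genes (0.0%) by edgeR's quasi-likelihood test, with 47 genes at an unadjusted p under 0.05. No gene was called under the other fits either, where 49 genes with DESeq2 size factors, 31 with total counts and 17 with DESeq2 had an unadjusted p under 0.05. That fit had 2 residual degrees of freedom, and a p that misses the threshold does not show that the populations behaved alike.

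Gene length went with the difference over its whole range. The median was 2.27 for the 686 genes under 500 bases, 2.01 for those of 500 to 1000 bases and 0.89 for those of 1000 to 2000 bases, each class without its upper limit. It was -0.11 at 2000 to 3000 bases, -0.72 at 3000 to 5000 bases, -1.30 at 5000 to 8000 bases and -1.88 for the 411 genes of 8000 bases and more. Of the genes of 500 to 1000 bases, 70.1% were higher and 11.7% lower, while 79.8% of the genes of 8000 bases and more were lower. On the total-count scale the medians of the 2 shortest classes stayed above 0, at 0.62 and 0.34, and that of 1000 to 2000 bases fell below it, at -0.73. Across genes the rank correlation of the difference with length was -0.56, where genes are not independent replicates.

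**Figure D1:**
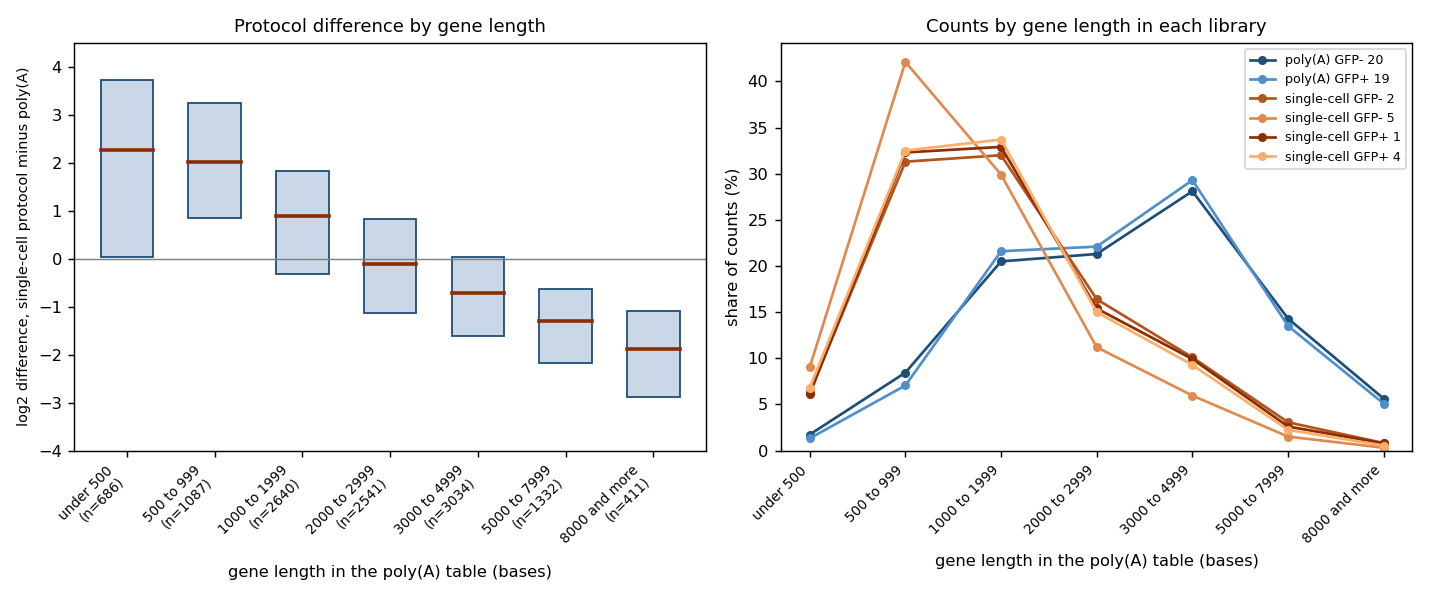
Left, the log2 difference (single-cell protocol minus poly(A), TMM scale) by gene length in bases, with the box from the lower to the upper quartile and the line at the median of the genes tested. Right, the share of each library's counts in the same length classes, where genes under 1000 bases hold 10.2% and 8.39% in the poly(A) libraries and 37.6% to 51.1% in the single-cell protocol libraries. Medians fall from 2.27 to -1.88 with length; on the total-count scale those of 1000 to 2000 bases and longer are all below 0.

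The composition of the libraries showed the same pattern without any scaling between libraries. Genes of 5000 bases and more held 19.9% and 18.6% of the counts in the poly(A) libraries. They held 3.89% and 1.83% in the GFP- and 3.40% and 2.80% in the GFP+ single-cell protocol libraries, so the groups did not overlap. The mean gene length behind a count was 3481 and 3449 bases with poly(A) and 1784, 1406, 1743 and 1675 bases with the single-cell protocol.

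The length limit of the single-cell protocol table touches this pattern only above 3000 bases. Among the 6954 genes tested whose length is the same in both tables, refitted alone, the medians were 1.47, 1.22, 0.12 and -0.87 from the shortest class to that of 2000 to 3000 bases. When each table's own length was taken into account, the medians of the 3 classes from 3000 bases upwards were -0.33, -0.29 and -0.16. On the deposited log2 RPKM values, which are also per length, all 7 medians were positive, from 1.87 under 500 bases to 0.41 at 3000 to 5000 bases and 0.80 at 8000 bases and more. Short genes were thus the highest on each of these scales. The position of the long genes differed between the 2 per-length scales, on which the median of all genes was 0.14 (counts) and 0.78 (log2 RPKM).

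Base composition went with the difference within each length class. The share of G and C could be read from a GENCODE M21 transcript for 10175 (86.7%) of the genes tested. Over all lengths the median was 0.31 where the share was under 40% and -1.90 where it was 60% and more. Among genes of 1000 to 2000 bases the median went from 2.04 to -1.38 between these ends. Among genes of 3000 to 5000 bases it went from 0.19 to -2.62, and in the latter class 94.1% of the genes with 60% and more were lower. On the total-count scale every median of the classes from 2000 bases upwards was below 0. Genes under 1000 bases spanned the least, with medians between 1.53 at 60% and more and 2.46 at 50% to 55%. On the total-count scale the former was -0.16, and the median over all lengths at under 40% was -1.29. The rank correlation of GC share with the difference was -0.26 across genes, and that of GC share with length -0.21.

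**Figure D2:**
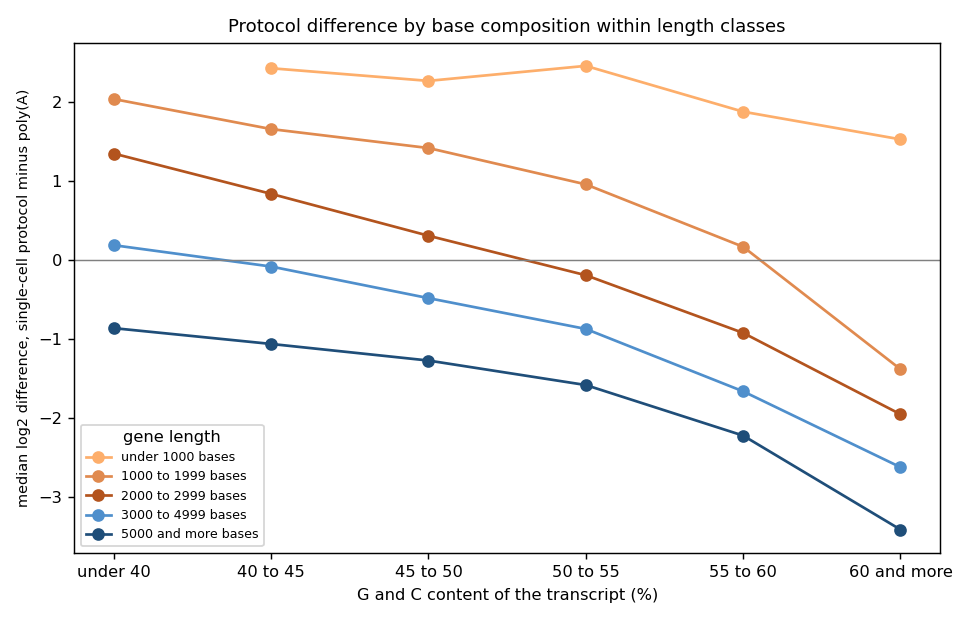
Median log2 difference (single-cell protocol minus poly(A), TMM scale) by the G and C content of the transcript in percent, 1 line per class of gene length, for points with at least 20 genes. Each line is lowest at 60% and more, and that for 1000 to 2000 bases goes from 2.04 to -1.38; on the total-count scale the medians of genes from 2000 bases upwards are below 0 at every point.

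Cytosolic ribosomal protein genes, which encode the protein parts of the ribosome, had the highest median among the 18 lists on the count scale. On the log2 RPKM values their median was 1.93, below those of replication histones (3.32), CD8 T and natural killer cell markers (2.47) and erythroid markers (2.32). Of 78 members in the tables, 11 were left out, all on chromosomes 3, 8 and 9, and 67 were tested: 66 were higher and 1 lower, against 29.8% and 34.8% of all genes. Their median was 4.66, or 2.96 on the total-count scale, where the same numbers passed. The small-subunit genes had a median of 4.62 and the large-subunit genes one of 4.66. The class median lay 2.77 above the median of genes of the same length classes.

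Values of single genes are given below in CPM, first for poly(A) GFP- and GFP+, then for single-cell protocol GFP- replicates 2 and 5 and GFP+ replicates 1 and 4. Rps3, a small-subunit protein, was at 1060 and 511 CPM and at 22200, 43200, 20800 and 15500 CPM. The difference was 5.05 ± 0.64 (log2 ± SE; edgeR adjusted p = 0.000135), and no single-cell protocol library overlapped a poly(A) library. The gene overlaps another in the annotation. Rpl8, a large-subunit protein, was at 1350 and 692 CPM and at 16200, 35200, 9950 and 11800 CPM, a difference of 4.11 ± 0.59 (edgeR adjusted p = 0.000286). For both genes GFP- replicate 5 was the highest library, and the poly(A) GFP- library was above the GFP+ one. Without GFP- replicate 5 the median of the class was 4.35.

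As shares of all counts, ribosomal protein genes took 2.97% and 1.57% in the poly(A) libraries. They took 17.7% and 24.6% in the GFP- and 13.1% and 14.2% in the GFP+ single-cell protocol libraries. In both protocols the GFP- libraries held the larger shares. RefSeq pseudogenes of ribosomal proteins, a list added after the data were seen, went the same way: all 33 tested were higher, with a median of 5.14. Reads of a parent gene and of its near-identical copies can be exchanged in counting, so values of single members of such families are uncertain.

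Rps15a was the ribosomal protein gene that was lower. It was at 108 and 44.9 CPM and at 1.86, 0.517, 0.671 and 0.519 CPM, a difference of -6.31 ± 0.36 (edgeR adjusted p = 3.07e-06). Its length in the poly(A) table is 5136 bases, while its processed copies are short. Rps15a-ps7, of 462 bases, was at 91.5 and 42.6 CPM and at 2560, 7840, 2240 and 2700 CPM. Summed over Rps15a and 6 copies the level was 438 and 194 CPM with poly(A) and 7670, 22900, 6640 and 8040 CPM with the single-cell protocol. The sum of the family was therefore higher in each single-cell protocol library, as in the rest of the class.

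**Figure D3:**
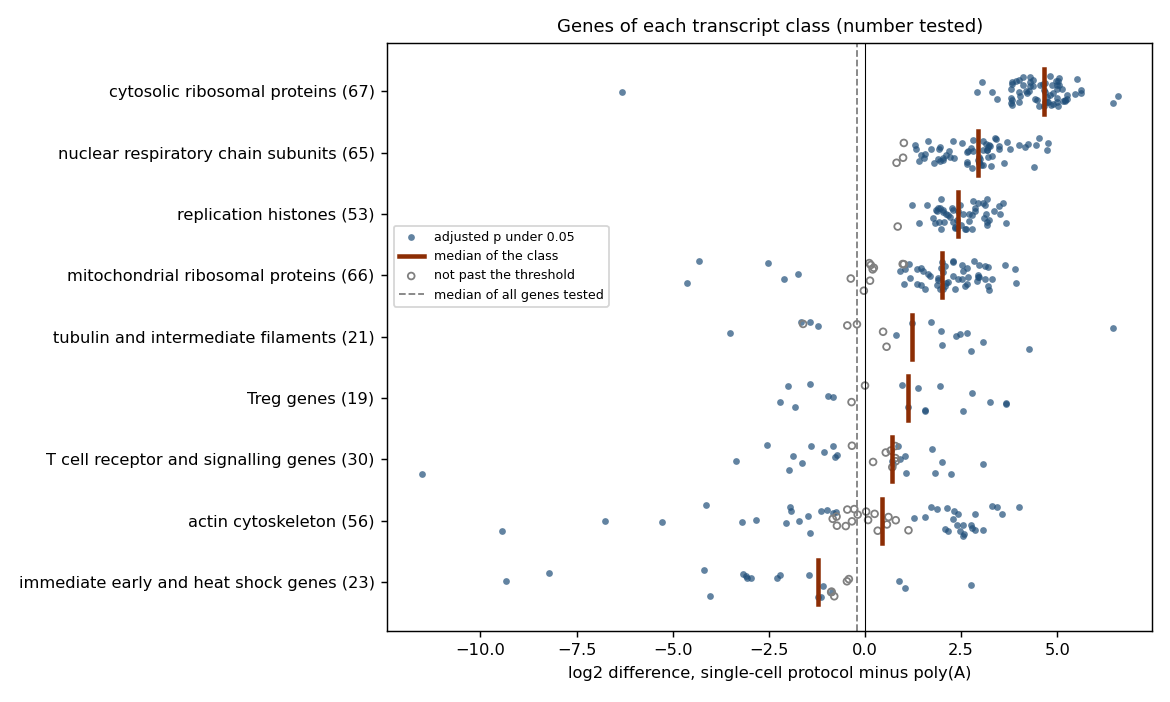
Each point is 1 gene of a list, placed by its log2 difference (single-cell protocol minus poly(A), TMM scale), filled where the edgeR adjusted p is under 0.05; bars are class medians and the dashed line is the median of all genes tested, -0.20. Ribosomal protein genes sit around 4.66 with Rps15a at -6.31, and the actin list spans -9.45 to 4.01; on the total-count scale the median of all genes moves by -1.61 and the medians of the tubulin, Treg, T cell and actin lists fall below 0.

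Replication histone genes, which supply chromatin with the core and linker histones during DNA synthesis, were higher almost without exception. Of 67 in the tables, 12 had 0 in every single-cell protocol library, 10 of them on chromosome 3, and 2 more were too low to test. Of the 53 tested, 52 were higher and 0 lower, against 29.8% and 34.8% of all genes, with a median of 2.43. Most are short, and the class median lay only 0.60 above the median of genes of the same length classes. Without poly(A) GFP+ replicate 19 the number higher was 28, with a median of 2.09. On the total-count scale the median was 0.76, and 17 passed as higher and 0 as lower. The H2A genes had a median of 3.03, the H2B genes 2.60, the H1 genes 2.22, the H4 genes 2.10 and the H3 genes 1.98. Against genes of the same length classes these medians were at 0.88, 0.75, 0.60, -0.17 and -0.04.

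Hist1h2ao, an H2A gene, had the highest level of the class, at 17.5 and 89.0 CPM and at 68.8, 164, 442 and 803 CPM. The difference was 2.77 ± 0.46 (edgeR adjusted p = 0.00062). Each single-cell protocol library was above the poly(A) library of its own population, and GFP- replicate 2 was below the GFP+ poly(A) library, so the groups overlapped. Within each protocol the GFP+ libraries were the higher ones. Hist1h2bk, an H2B gene, was at 0.143 and 0.289 CPM and at 1.19, 1.68, 4.78 and 2.59 CPM, a difference of 3.49 ± 0.48 (edgeR adjusted p = 0.000227). Most members were as low, with a class median of 0.430 and 0.596 CPM in the poly(A) libraries and 1.49 to 3.63 CPM in the others. As shares of all counts the class took 0.0189% and 0.0641% with poly(A), 0.0268% and 0.0378% in the GFP- and 0.123% and 0.238% in the GFP+ single-cell protocol libraries.

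The smallest differences in the class were those of Hist1h1c, Hist3h2a and Hist3h2ba, which are named here after their values were seen. Hist1h1c, a linker histone gene, was at 3.81 and 5.02 CPM and at 6.91, 13.1, 11 and 16.4 CPM, a difference of 1.41 ± 0.34 (edgeR adjusted p = 0.00495) that was -0.25 on the total-count scale. Hist3h2a was at 9.23 and 13.3 CPM and at 12.4, 19.7, 35.7 and 50.9 CPM, a difference of 1.23 ± 0.33 (edgeR adjusted p = 0.00924) that was -0.43 on the total-count scale. Both lost the call without poly(A) GFP+ replicate 19. Hist3h2ba, at 1.88 and 1.35 CPM and at 2.08, 3.10, 3.52 and 3.04 CPM, was the member that did not pass, at 0.85 ± 0.36 (edgeR adjusted p = 0.0633) and -0.80 on the total-count scale.

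The ends of the annotated transcripts are shown for histone genes on both sides of this range and for the ribosomal and cytoskeletal genes described here, since the protocols act on that end. They are the GENCODE M21 sequences, 5′ to 3′, with a hairpin of 6 paired bases around a loop of 4 in capitals for the first 4 genes and the polyadenylation hexamer AATAAA in capitals for the others.
Hist1h2ao: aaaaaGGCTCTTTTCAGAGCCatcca
Hist1h2ag: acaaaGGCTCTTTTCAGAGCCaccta
Hist1h2bk: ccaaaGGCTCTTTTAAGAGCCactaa
Hist1h4h: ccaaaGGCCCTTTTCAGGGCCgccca
Hist1h1c: atgcttctAATAAAaagcgtttagttttca
Hist3h2a: atatgcccAATAAAataagagtacgtgtat
Rpl8: caggagctAATAAAgtacgtcctttggcta
Coro1a: acgaaaatAATAAAacggctttattttctg
Myh9: agcgtcacAATAAAgagtaccatgtcctac
Cap1: gaaaatagAATAAAgttaataccaaacttg

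The hairpin was searched on the transcript strand in the last 100 bases, and AATAAA or ATTAAA in the last 50 bases. The hairpin was found in 20 of 66 histone genes with a transcript. It was in 21 (0.111%) of 18971 protein-coding transcripts, which include those of histone genes, so these shares are not independent. A hexamer was found in 71.0% of the protein-coding transcripts and in 16 histone genes. A missing match says only that these letters are not in the window. The 17 genes with the hairpin that could be tested were all higher, with a median of 2.77, and the 35 without it had a median of 2.35. Hist1h4h, which has it, was at 0.348 and 0.519 CPM and at 1.49, 2.33, 3.27 and 3.48 CPM. Myh9, Cap1 and Rpl8 all carry the AATAAA hexamer, and their differences were -6.75, -9.45 and 4.11.

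Replacement histone genes, made outside DNA synthesis from polyadenylated messages, did not all lie on 1 side. The shares over all genes tested were 29.8% higher and 34.8% lower. Of 8 tested 5 were higher and 2 lower, with a median of 1.20 that was -0.50 on the total-count scale, and without poly(A) GFP+ replicate 19 there were 3 higher and 0 lower. Without poly(A) GFP- replicate 20 there were 3 higher and 1 lower. H3f3a was at 17.8 and 15.7 CPM and at 118, 268, 198 and 210 CPM, and H3f3b at 97.6 and 111 CPM and at 811, 817, 1490 and 1030 CPM, both encoding the replacement form of histone H3. The differences were 3.57 ± 0.41 and 3.28 ± 0.37 (edgeR adjusted p = 8.24e-05 and 7.11e-05). H1fx, with 71.32% G and C in its transcript, was at 0.307 and 0.789 CPM and at 0.149, 0.0, 0.0839 and 0.0 CPM. That difference was -2.97 ± 0.85 (edgeR adjusted p = 0.0123) and lost its call without poly(A) GFP+ replicate 19.

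**Figure D4:**
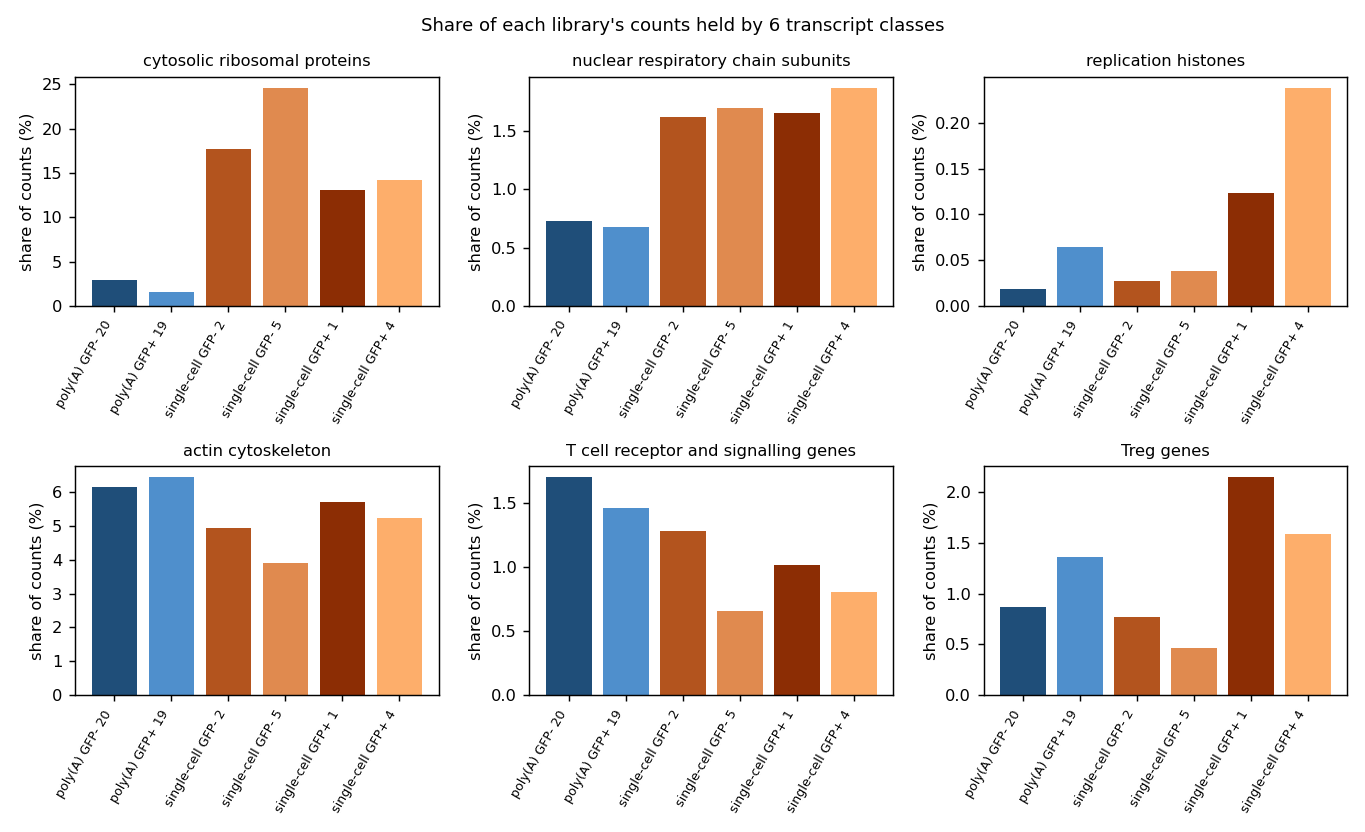
Share of each library's counts, in percent, held by 6 transcript classes, 1 bar per library. Ribosomal protein genes go from 2.97% and 1.57% with poly(A) to between 13.1% and 24.6% with the single-cell protocol, and histone genes are higher in GFP+ than in GFP- libraries under both protocols.

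Genes of the mitochondrion encoded in the nucleus were also higher, and mitochondrially encoded genes were not among the genes analysed. Of 84 subunits of the respiratory chain, 65 were tested: 62 were higher and 0 lower, against 29.8% and 34.8% of all genes. Their median was 2.93, or 1.20 on the total-count scale with 41 higher. It lay 1.13 above the median of genes of the same length classes. All 5 complexes had medians between 2.69 (complex II) and 3.23 (complex IV). Cox7a2l, which helps complexes join into supercomplexes, was at 108 and 53.1 CPM and at 2220, 4190, 1280 and 1400 CPM, a difference of 4.77 ± 0.47 (edgeR adjusted p = 3.61e-05). Atp5b, the catalytic subunit of ATP synthase, was at 486 and 419 CPM and at 3400, 4210, 3320 and 3280 CPM. That difference was 2.97 ± 0.39 (edgeR adjusted p = 0.000162), and it was -0.28 on the deposited log2 RPKM values. The class took 0.726% and 0.680% of the counts with poly(A) and between 1.62% and 1.87% with the single-cell protocol, without overlap.

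Mitochondrial ribosomal protein genes were higher less uniformly: of 66 tested, 52 were higher and 5 lower, against 29.8% and 34.8% of all genes. Their median was 2.01 (0.33 on the total-count scale, with 21 higher and 12 lower). It lay 0.63 above the median of genes of the same length classes. Mrpl52 was at 27.9 and 22.6 CPM and at 231, 481, 257 and 301 CPM, a difference of 3.65 ± 0.40 (edgeR adjusted p = 6.39e-05). The lowest members were long genes. Mrpl17, of 6712 bases in the poly(A) table, was at 19.8 and 18.5 CPM and at 1.26, 0.905, 0.587 and 0.445 CPM, a difference of -4.62 ± 0.32 (edgeR adjusted p = 6.54e-06). Mrps25, of 6076 bases, had a difference of -4.32 ± 0.37. Mrps30 was the exception in length, with 1590 bases and a difference of -2.53 ± 0.25.

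Actin cytoskeleton genes differed by length on the count scale. Of 56 tested, 24 were higher and 16 lower, against 29.8% and 34.8% of all genes. Their median was 0.45, but -1.16 on the total-count scale (15 higher, 31 lower) and -0.72 on the log2 RPKM values. Among the 31 genes of up to 3000 bases, 21 were higher and 5 lower (median 2.28). Among the 25 longer genes, 3 were higher and 11 lower (median -0.74). When each table's own length was taken into account, these longer genes had a median of 0.67 with 9 higher and 7 lower. The class as a whole took 6.14% and 6.42% of the counts with poly(A) and 3.89% to 5.69% with the single-cell protocol.

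The short members included light chains of myosin and subunits of Arp2/3, the complex that starts actin branches. Myl6, a myosin light chain named after its values were seen, was at 83.2 and 86.6 CPM and at 1220, 1120, 2240 and 958 CPM, a difference of 4.01 ± 0.48 (edgeR adjusted p = 0.0001). Arpc5 was at 69.2 and 80.3 CPM and at 594, 926, 1030 and 1030 CPM, a difference of 3.57 ± 0.37 (edgeR adjusted p = 4.71e-05). Of the 9 Arp2/3 genes 7 were higher and 2 lower, against 29.8% and 34.8% of all genes, with a median of 2.41. On the total-count scale 4 were higher and 2 lower, with a median of 0.71. Arpc3, a short gene of 848 bases, was on the lower side with 77.1 and 84.8 CPM and 14.9, 24.8, 19.1 and 19.7 CPM, a difference of -2.05 ± 0.25 (edgeR adjusted p = 0.000113). Arpc3 was also chosen after its values were seen, as the subunit that went against its length.

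Coro1a and Actb are abundant members. Coro1a, an actin-binding protein of leukocytes, was at 2750 and 2210 CPM and at 10900, 21000, 9320 and 11600 CPM, a difference of 2.39 ± 0.50 (edgeR adjusted p = 0.00258). It lost its call without either poly(A) library, and was -1.71 on the log2 RPKM values. Actb, beta-actin, was at 6900 and 6600 CPM and at 3590, 5840, 4420 and 5850 CPM. Its difference of -0.46 ± 0.39 did not pass (edgeR adjusted p = 0.33), although the libraries did not overlap, and it was -2.12 on the total-count scale, where it passed.

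The low members lay far from the rest. Myh9, the heavy chain of non-muscle myosin, is 7371 bases long and was at 2530 and 2420 CPM and at 24.4, 18.8, 29.6 and 19.3 CPM. The difference was -6.75 ± 0.35 (edgeR adjusted p = 2.45e-06). Cap1, which returns actin monomers to use, has 2393 bases and was at 523 and 573 CPM and at 0.743, 0.517, 1.26 and 0.593 CPM, a difference of -9.45 ± 0.37 (edgeR adjusted p = 1.36e-06). Cap1 overlaps Ppt1 in the RefSeq annotation, and since the strand used in counting is not given in the sources used here, reads of overlapping genes cannot be told apart. Wasf2 and Actn1, of 4088 and 3739 bases, had differences of -5.29 ± 0.27 and -4.13 ± 0.27. Dock8, an exchange factor of 7810 bases that T cells need for migration, had one of -3.20 ± 0.24.

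Of 21 tubulin and intermediate filament genes tested, 12 were higher and 4 lower, against 29.8% and 34.8% of all genes. Their median was 1.21, but -0.45 on the total-count scale (6 higher, 9 lower). Without poly(A) GFP- replicate 20, 2 were lower. Stmn1, a protein of dividing cells that takes up tubulin, was at 0.9 and 4.5 CPM and at 69.8, 73.2, 536 and 324 CPM, a difference of 6.45 ± 0.41 (edgeR adjusted p = 4.17e-06). Tuba1c, an alpha-tubulin, was at 42.4 and 55.9 CPM and at 525, 1040, 1070 and 1190 CPM. Its difference was 4.27 ± 0.43 (edgeR adjusted p = 4.19e-05). Vim, the vimentin gene, was at 463 and 1510 CPM and at 1960, 3520, 10500 and 10100 CPM, a difference of 2.66 ± 0.45 (edgeR adjusted p = 0.000754) that was -0.84 on the log2 RPKM values. Lmnb1, a nuclear lamin, was at 66.5 and 228 CPM and at 5.58, 5.17, 24.0 and 18.9 CPM, a difference of -3.51 ± 0.23 (edgeR adjusted p = 4.68e-06).

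T cell receptor and signalling genes were called at shares near those of all genes tested, 29.8% higher and 34.8% lower. Of the 38 genes, 8 were left out, all on chromosomes 3, 8 and 9, and of 30 tested 11 were higher and 11 lower, with a median of 0.69. On the total-count scale the median was -0.96 with 1 higher and 21 lower, and on the log2 RPKM values it was -1.03. With either poly(A) library left out the counts were 5 higher and 7 lower. Of the 12 genes of up to 3000 bases 8 were higher and 1 lower (median 0.94), and of the 18 longer ones 3 were higher and 10 lower (median -0.75). The shorter genes had a total-count median of -0.66 with 1 higher and 5 lower. With either poly(A) library left out, 5 of the shorter genes were higher, and 0 of the longer genes were higher and 6 lower. Per length, 4 of the longer genes were higher and 5 lower (median -0.30). As for any bulk sample, fewer cells of a type and less RNA per cell cannot be told apart in these levels.

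Among adaptors and kinases near the receptor, Skap1 was at 140 and 99.6 CPM and at 1070, 1410, 785 and 796 CPM, a difference of 3.07 ± 0.34 (edgeR adjusted p = 6.97e-05). Lck, the kinase that starts receptor signalling, was at 730 and 538 CPM and at 3980, 2530, 3520 and 1770 CPM, a difference of 2.23 ± 0.45 (edgeR adjusted p = 0.00198). Lat, the membrane scaffold for signalling, was at 439 and 377 CPM and at 1510, 2010, 1650 and 1400 CPM. Its difference was 2.01 ± 0.34 (edgeR adjusted p = 0.000786). For these 3 genes no libraries overlapped, and for Lck and Lat the log2 RPKM values gave -1.08 and -1.26.

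Cd247 encodes the zeta chain that carries the signal of the T cell receptor, and was nearly absent from the single-cell protocol libraries. It had 216 and 188 CPM with poly(A), 0 counts in both GFP- libraries and 0.0839 and 0.148 CPM in the GFP+ libraries of the single-cell protocol. These are 3 counts against 20322, a ratio of 3130 (exact 95% counting interval 1070 to 15200) in favour of poly(A). Its fitted difference was -11.52 ± 0.48 (edgeR adjusted p = 1.36e-06). The gene is 7385 bases long in the poly(A) table and overlaps Pou2f1. Such intervals cover counting error only, and reads without molecular identifiers are not independent molecules.

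Other T cell genes on the lower side were less far from poly(A). Grap2, an adaptor, was at 135 and 71.6 CPM and at 14.7, 9.05, 10.2 and 5.26 CPM, a difference of -3.36 ± 0.31 (edgeR adjusted p = 2.59e-05). Bcl11b, a factor that maintains T cell identity, was at 503 and 342 CPM and at 107, 67.4, 62.5 and 53.1 CPM. Its difference was -2.55 ± 0.27 (edgeR adjusted p = 5.42e-05). Plcg1, the phospholipase downstream of Lat, had one of -1.98 ± 0.33 (edgeR adjusted p = 0.000666). Cd4, the coreceptor used for the sort and named for that reason, was at 602 and 619 CPM and at 321, 410, 390 and 349 CPM, with -0.73 ± 0.27 (edgeR adjusted p = 0.0369). Cd4 lost its call without either poly(A) library or without either GFP+ single-cell protocol library.

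Treg genes of different length lay apart on the count scale. Of 19 tested 11 were higher and 6 lower, against 29.8% and 34.8% of all genes. Their median was 1.12, but -0.50 on the total-count scale (5 higher, 9 lower) and -0.35 on the log2 RPKM values. Without poly(A) GFP+ replicate 19, 7 were higher and 3 lower. Of the 10 genes of up to 3000 bases 9 were higher and 0 lower (median 1.76). Of the 9 longer genes 2 were higher and 6 lower (median -0.95). Per length, 2 of these 9 were higher and 3 lower (median -0.47). Without poly(A) GFP+ replicate 19, 6 of the shorter genes were higher, and 1 of the longer genes was higher and 3 lower. Without poly(A) GFP- replicate 20, 1 of the longer genes was higher and 4 lower.

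The receptors Tnfrsf18 (GITR) and Tnfrsf4 (OX40) showed the largest differences of the list. Tnfrsf18 was at 198 and 306 CPM and at 2890, 1400, 6190 and 2940 CPM, and Tnfrsf4 at 143 and 263 CPM and at 1100, 1920, 4400 and 3660 CPM. Both differences were 3.66, with SE of 0.55 and 0.45 (edgeR adjusted p = 0.000348 and 0.000116). Each of the 2 genes overlaps another gene in the annotation. Klrg1, a receptor of terminally differentiated Treg, was at 5.08 and 149 CPM and at 25.8, 48.9, 2090 and 1600 CPM, a difference of 3.24 ± 0.43 (edgeR adjusted p = 0.000184), with GFP+ above GFP- in both protocols. Capg, an actin-capping protein common in Treg lists, was at 237 and 547 CPM and at 1610, 966, 6640 and 2930 CPM. Its difference was 2.77 ± 0.51 (edgeR adjusted p = 0.00117) and -0.50 on the log2 RPKM values.

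Transcription factors of the list lay on both sides. Foxp3 differed by 0.97 ± 0.35 (edgeR adjusted p = 0.0345), lost its call when 1 poly(A) or 1 GFP+ single-cell protocol library was left out, and was -0.68 on the total-count scale and -1.90 on the log2 RPKM values. Ikzf2 (Helios) was at 182 and 244 CPM and at 38.2, 34.0, 52.9 and 64.1 CPM, a difference of -2.20 ± 0.23 (edgeR adjusted p = 5.15e-05). Ikzf4 (Eos) differed by -1.99 ± 0.23 (edgeR adjusted p = 7.86e-05). Prdm1, from the values above, differed by -1.83 ± 0.25 (edgeR adjusted p = 0.000194). Il2ra, the CD25 chain used for the sort and named for that reason, was at 339 and 204 CPM and at 180, 184, 130 and 111 CPM, with -0.83 ± 0.24 (edgeR adjusted p = 0.0134), and lost its call without either poly(A) library or GFP+ replicate 4.

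Markers of other cells that a sort of Treg can carry over took at most 0.176% of the counts per list in any library, although single genes reached levels like those of Treg genes. Of 17 myeloid markers, S100a8 and S100a9 had 0 in all single-cell protocol libraries and lie on chromosome 3, and 13 to 15 had counts in each of these libraries. The list took 0.00485% of the counts in GFP- and 0.171% in GFP+ cells with poly(A), 0.00374% and 0.00351% in GFP- and 0.118% and 0.163% in GFP+ cells with the single-cell protocol. C1qa, a complement gene of macrophages named after its values were seen, was at 1.17 and 100 CPM and at 3.64, 4.79, 254 and 408 CPM. The B cell list took 0.0109% to 0.028% and the plasma cell list 0.00966% to 0.0322% over all libraries. Pax5, Fcer2a and Bank1 had 0 in every single-cell protocol library. Of the 6 erythroid markers tested 4 were higher and 1 lower, against 29.8% and 34.8% of all genes, with a median of 3.76. Without poly(A) GFP+ replicate 19, 0 were lower. That list took 0.00838% and 0.024% with poly(A) and 0.0163% to 0.176% with the single-cell protocol, and 4 of its 10 members had 0 in the latter, Epor, Klf1 and Car2 among them. The part of these cells in the differences described here was not tested.

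**Figure D5:**
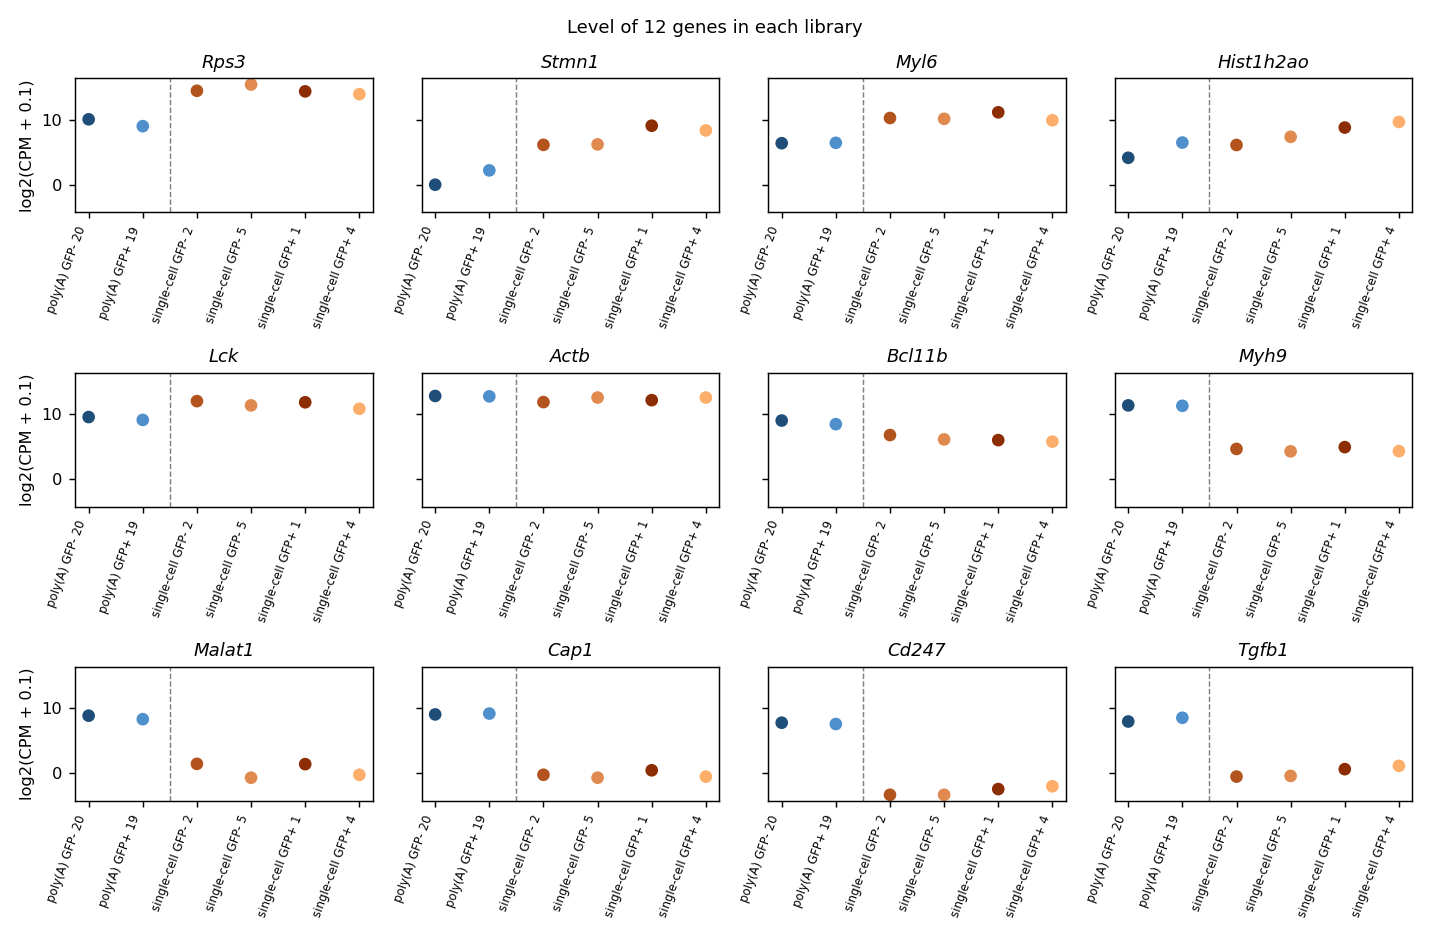
Level of 12 genes, as log2 of CPM plus 0.1, in each library; blue points are the poly(A) and orange to brown points the single-cell protocol libraries. Rps3, Stmn1, Myl6 and Lck are higher in all single-cell protocol libraries, Bcl11b, Myh9, Malat1, Cap1, Cd247 and Tgfb1 are lower in all of them, Actb did not pass the test, and for Hist1h2ao the groups overlap; Lck reverses on the deposited log2 RPKM values.

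Among genes with a mean of at least 10 CPM and a gene name, those with the largest positive differences were of 2 kinds. The first 5 each overlap another gene. Wdr38, which overlaps Rpl35, was at 0 and 0.0192 CPM (1 count) and at 97.0, 75.9, 60 and 37.7 CPM, a ratio of 6740 (exact 95% counting interval 1210 to 266000). Lrch4, which overlaps Gm20605, had 0 counts with poly(A) and 17.9, 25.4, 15.9 and 19.6 CPM with the single-cell protocol, so it was at least 331-fold higher, from a floor of 3 counts per library. Fam166a, which overlaps Tubb4b, had 2 counts with poly(A), a ratio of 1810 (interval 502 to 15000). Cntd1 and Map3k15, which overlap Becn1 and Pdha1, had differences of 7.88 ± 0.38 and 6.69 ± 0.36. Of the 28 genes tested with a difference of 6 or more and a position in the annotation, 53.6% overlap another gene, against 25.2% of all.

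The other kind was short genes that were abundant with the single-cell protocol, and their copies. Besides Stmn1 these included Rps27a (6.44 ± 0.60), Rpl26 (5.62 ± 0.62), Rpl36a (5.62 ± 0.46), the copies Rps12-ps13, Rps15a-ps7, Rps15a-ps1 and Rps15a-ps6 (6.23 to 5.69) and Ppia. Among them Rps27a overlaps 1700034F02Rik and Rps15a-ps6 overlaps Nudcd3. Ppia encodes cyclophilin A, a peptide isomerase, and was at 17.8 and 17 CPM and at 670, 925, 1050 and 702 CPM, a difference of 5.59 ± 0.42 (edgeR adjusted p = 9.96e-06). The gene with Entrez number 100503984, which has no symbol in the tables, had 0 counts with poly(A) and 4680, 10400, 9630 and 6670 CPM with the single-cell protocol. That is at least 132000-fold higher from the same floor, and 0.386% to 0.655% of the counts of each library. It is named after its values were seen.

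The 15 largest negative differences among genes with a gene name were led by Cd247, Cap1 and Ntng2, each overlapping another gene. Larger ones were found at short genes with locus names, which are given here after their values were seen. Gm19886, of 560 bases, was at 859 and 716 CPM and at 0.297, 0.0, 0.168 and 0.0741 CPM, a difference of -12.32 ± 0.50, and Gm19545, of 519 bases, had one of -11.92 ± 0.47. Both went against the trend with length, and neither has an entry in the RefSeq annotation used here, so their chromosome is not known. Ntng2, a membrane-bound netrin, had 26.9 and 58.4 CPM against 3 counts in all single-cell protocol libraries, a ratio of 670 (exact 95% counting interval 229 to 3250). Cebpb, a transcription factor gene with 67.15% G and C, was at 20.8 and 63.6 CPM and at 0.0, 0.129, 0.0839 and 0.222 CPM, a difference of -8.62 ± 0.42 (edgeR adjusted p = 2.04e-06). Tgfb1 encodes TGF-beta 1, a cytokine through which Treg act, and has 2094 bases and 62.53% G and C. It was at 246 and 366 CPM and at 0.595, 0.647, 1.43 and 2.08 CPM, a difference of -8.10 ± 0.33 (edgeR adjusted p = 1.36e-06). Both genes were thus present in the poly(A) libraries and near 0 in all 4 others.

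The remaining genes of that group were Ddx23, a splicing helicase (-8.03 ± 0.37), the chromatin genes Arid1b (-7.98 ± 0.38), Atn1 (-7.87 ± 0.31) and Elmsan1 (-7.62 ± 0.53), Tnrc6b of the microRNA silencing complex (-7.75 ± 0.40), Xpo7, a nuclear transport receptor (-7.58 ± 0.33), Ankrd52, a phosphatase subunit (-7.82 ± 0.38), Mark4, a microtubule kinase (-7.53 ± 0.40), and Lrrc58 (-7.49 ± 0.33). Of these, Xpo7 overlaps Dok2 in the annotation. Lrrc58, of 8592 bases, went from 1600 and 1520 CPM to 7.81, 9.18, 7.21 and 10.4 CPM. Malat1, a nuclear long noncoding RNA of 6982 bases, was at 457 and 315 CPM and at 2.60, 0.517, 2.52 and 0.741 CPM, a difference of -7.85 ± 0.55 (edgeR adjusted p = 6.7e-06).

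Genes high in 1 protocol and near 0 in the other could be counted only among the genes used. The 3505 genes left out on chromosomes 3, 8 and 9, and 63 others left out at 10 CPM or more in both poly(A) libraries, had 0 in every single-cell protocol library and are not in these counts. Of those 63 genes, 59 have no chromosome in the RefSeq annotation, so whether they lie on chromosomes 3, 8 and 9 is not known. Of 4125 genes used at 20 CPM or more in both poly(A) libraries, 81 (1.96%) were under 2 CPM in all 4 single-cell protocol libraries. Their median length was 3442 bases, against 2562 for all genes tested, and their median G and C content was 55.2% (68 with a transcript), against 50.6%. Both comparisons are with all genes tested and not with the 4125, so the limit on level can enter into them. Of these 81 genes 35 had the same length in both tables, and 56.8% were at the limit of 3000 bases, against 49.9% of the 4125. The reverse held for 16 of 3486 genes (0.459%), with a median length of 550 bases, and 14 of them have clone or locus names.

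Long noncoding RNA genes, Malat1 among them, were mixed: of 16 tested 4 were higher and 6 lower, with a median of -0.07, which was 0.96 on the log2 RPKM values (9 higher, 1 lower) and -1.71 on the total-count scale (1 higher, 10 lower). These shares are near the 29.8% and 34.8% of all genes tested. Among the 5 that overlap no other gene 0 were higher and 3 lower. Gas5, a host of small nucleolar RNAs that overlaps them, was at 51.0 and 26.2 CPM and at 134, 330, 136 and 158 CPM, a difference of 2.33 ± 0.40 (edgeR adjusted p = 0.00081). Kcnq1ot1, an antisense RNA given as 83437 bases, was at 5.79 and 3.44 CPM and at 0.0, 0.0, 0.0 and 0.0741 CPM (1 count). Of 551 genes of small structural and regulatory RNAs 456 had 0 in every single-cell protocol library, 68 of them on chromosomes 3, 8 and 9. In the poly(A) libraries only 154 and 144 of the 551 had a count. Of the 551 genes 25 were tested: 10 were higher and 5 lower, against 29.8% and 34.8% of all genes. Their median was 0.22, or -1.39 on the total-count scale (8 higher, 13 lower). Against genes of the same length classes the class median was at -2.05. With either poly(A) library left out, 3 were lower. Mir682 was at 35.9 and 22.6 CPM and at 315, 813, 382 and 521 CPM, and Mir142 at 3.01 and 2.46 CPM and at 0.149, 0.129, 0.168 and 0.0741 CPM. Counts at such genes can come from longer transcripts over them, so these are no levels of the mature small RNAs.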

How the data were processed

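Libraries of sorted mouse Treg made by a poly(A) protocol (GFP- replicate 20, GFP+ replicate 19) and by a single-cell protocol (GFP- replicates 2 and 5, GFP+ replicates 1 and 4) were compared. The authors deposited raw read counts per gene in 1 table for each protocol, per the file headers, and log2 RPKM values per sample. Subread, featureCounts, edgeR and the mm9 genome are named, without versions, in the submitters' processing notes, and the strand used in counting is not given in the sources used here. Once sorted, the deposited log2 values hardly differed between the 6 libraries, as quantile normalisation would leave them, and they were used only as an alternative. Genes with 0 in all single-cell protocol columns were left out, and library sizes were recomputed on the rest (84.7% and 85.0% of the poly(A) counts).

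Counts were fitted with edgeR 4.0.16 in R 4.3.3 (filterByExpr by protocol, TMM scaling, quasi-likelihood F-test, population and protocol as terms, 3 residual degrees of freedom), and p-values were adjusted by Benjamini-Hochberg over the 11731 genes tested. A gene was called at an adjusted p under 0.05. Scripts were tested on simulated data. Alternatives were other scalings and filters, DESeq2 1.42.0, limma 3.58.1 on the log2 values, counts per length, genes of equal length, 1 population alone, no population term and each library left out. Genes that overlap no other gene were tried as an alternative chosen after seeing the data. The transcript classes, 18 lists and tests were chosen with earlier results of these data known. Named were the 15 largest differences in each direction among called genes that averaged 10 CPM or more and had a gene name and no overlap between protocols, and in each list genes from up to 6 members with the smallest p and up to 4 with the highest level. Exceptions are stated where they occur. A gene named by this rule is not reported here.

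With 1 poly(A) library per population the spread rests on 6 libraries, and a p-value reflects how these samples vary, which may be technical. Across genes, log2 CPM correlated at 0.923 between the poly(A) libraries, which are of different populations. Between single-cell protocol libraries the correlation was 0.907 to 0.928 for different populations and 0.949 and 0.967 within a population. Between protocols it was 0.672 to 0.774. No pair agreed within sampling noise, and 540 entries without a symbol were kept by Entrez number. G and C content and transcript ends came from GENCODE M21 transcripts, and chromosomes and overlaps from a RefSeq gene table of another build, whose coordinates are not given.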

Additional observations from a re-analysis of the deposited data

Results flagged for a closer look

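For 2 lists the share of counts was lower with the single-cell protocol in GFP- cells and higher with it in GFP+ cells, in every library. Treg genes took 0.864% of the counts in the GFP- poly(A) library and less in both GFP- single-cell protocol libraries, 0.769% and 0.47%. In GFP+ cells they took 1.36% with poly(A) and more with the single-cell protocol, 2.14% and 1.58%. Markers of CD8 T and natural killer cells took 0.00984% in GFP- cells with poly(A) and 0.00732% and 0.00839% with the single-cell protocol. In GFP+ cells they took 0.0119% with poly(A) and 0.013% and 0.018% with the single-cell protocol. Gzma, a granule protease of that list, went against the list's share in GFP- cells. It was at 0.0409 CPM with poly(A) and at 0.595 and 0.388 CPM with the single-cell protocol there. In GFP+ cells Gzma was at 1.48 CPM with poly(A) and at 6.80 and 34.8 CPM with the single-cell protocol. Gene by gene on the TMM scale, 6 of the 8 members of that list tested were higher and 0 lower, against 29.8% and 34.8% of all genes. Fewer of these members passed as higher with either poly(A) library left out. With GFP- libraries alone their median was 1.6. On the total-count scale 1 was higher and 1 lower, with a median of -0.11. The difference between the populations was not tested for either share.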

How the results depend on the processing

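Genes with few counts in 1 protocol have wide counting intervals, and the spread rests on 3 residual degrees of freedom. With total counts, log2 RPKM values, genes of equal length or GFP- libraries alone, the number of genes higher was 1101, 5808, 2067 and 1623, and the number lower was 7853, 1870, 2384 and 2012. Fewer genes or libraries entered under the last 2 of these. With 1 library left out, 2185 to 3703 genes were higher and 2497 to 4179 lower. The median of genes under 1000 bases minus that of genes of 5000 bases and more was 3.48 (3.23 to 3.74 with 1 library left out), 1.20 on log2 RPKM values and 2.33 per length.

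Class medians minus the median of all genes are given next, with the range when 1 library was left out. For replication histones the value was 2.62 (2.26 to 2.99), 1.75 among genes of equal length and 2.99 in GFP+ libraries alone. For ribosomal proteins it was 4.85 (4.52 to 5.16), 1.15 on log2 RPKM values and 3.94 among genes of equal length. For the respiratory chain it was 3.13 (2.68 to 3.32), then 0.69 and 2.19 under these settings, and for mitochondrial ribosomal proteins 2.20 (1.98 to 2.42), then 0.86 and 1.37. For T cell genes it was 0.88 (0.71 to 0.90), 0.62 without a filter, -1.80 on log2 RPKM values, 0.25 among genes of equal length and 0.58 per length. For Treg genes it was 1.31 (1.20 to 1.35), 1.05 without a filter, -1.12 on log2 RPKM values, 1.07 among genes of equal length and 0.79 among genes that overlap no other. For actin genes it was 0.64 (0.48 to 0.74), 0.48 with a filter by population, 0.39 without a filter, -1.50 on log2 RPKM values, 1.56 among genes of equal length, 0.91 per length and 1.03 among genes that overlap no other. For tubulin and intermediate filament genes it was 1.40 (1.02 to 1.80), 1.24 and 1.14 with the other filters, -0.12 on log2 RPKM values, 1.06 per length, 1.02 in GFP- and 1.80 in GFP+ libraries alone and 1.23 among genes that overlap no other. For immediate early and heat shock genes it was -1.02 (-1.31 to -0.97), -1.14 and -1.28 with the other filters, -3.01 on log2 RPKM values, -2.98 among genes of equal length and -1.36 per length.

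The medians themselves were below 0 with total counts for T cell (-0.96), Treg (-0.50), actin (-1.16) and tubulin genes (-0.45), and on log2 RPKM values for T cell (-1.03), Treg (-0.35) and actin genes (-0.72). With total counts the difference was negative for Hist1h1c (-0.25), Hist3h2a (-0.43), Hist3h2ba (-0.80) and Foxp3 (-0.68). On log2 RPKM values it was negative for Atp5b (-0.28), Lck (-1.08), Lat (-1.26), Capg (-0.50), Foxp3 (-1.90), Coro1a (-1.71) and Vim (-0.84). The cause was not tested for any of these. Of 96 named genes 18 lost the call with GFP- libraries alone and 8 without the population term, in the same direction. No paired analysis was possible because the poly(A) and single-cell protocol groups share no replicate numbers.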

Other observations

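Immediate early and heat shock genes, which respond within minutes to stimulation or stress, lay mostly lower in the single-cell protocol libraries. Of 30 members 6 were left out, all on chromosomes 3, 8 and 9. Of 23 tested 3 were higher and 15 lower, against 29.8% and 34.8% of all genes, with a median of -1.21. With either poly(A) library left out 1 was higher, and 12 or 11 were lower. Against genes of the same length classes the class median was at -1.77, and the list took 0.412% and 0.538% of the counts with poly(A) and 0.104% to 0.147% with the single-cell protocol. Egr3, a transcription factor induced by the T cell receptor, was at 23.3 and 18.3 CPM and at 0.0743, 0.0, 0.168 and 0.0 CPM. Jun, a subunit of AP-1, was at 91.5 and 91.4 CPM and at 16, 13.6, 9.31 and 9.71 CPM, a difference of -2.96 ± 0.24 (edgeR adjusted p = 1.31e-05). Hspa1b, an inducible heat shock protein, differed by -4.18 ± 0.27 (edgeR adjusted p = 5.01e-06). Hsp90aa1, a chaperone, lay on the other side with 145 and 143 CPM and 686, 1120, 1080 and 996 CPM, a difference of 2.75 ± 0.36 (edgeR adjusted p = 0.000174).

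RefSeq pseudogenes, a class added after the data were seen, took 3.11% and 2.31% of the counts with poly(A) and 10.6% to 14.8% with the single-cell protocol. Of 472 tested 340 were higher and 52 lower, against 29.8% and 34.8% of all genes, with a median of 2.80. With total counts 246 were higher and 121 lower, with a median of 1.15. Without poly(A) GFP+ replicate 19, 33 were lower. Pseudogenes other than those of ribosomal proteins had a median of 2.52. Reads of their parent genes cannot be told apart from their own.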
